A study of Homo sapiens with 8 samples.

Results

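The 35 genes described here belong to the oxidative stress and detoxification program of the transcription factor NRF2 (gene *NFE2L2*). They were chosen by name: the regulators, the enzymes and exporters they are known to control, and a few other targets. Of the 35 genes, 32 had a probe that could be named through its RefSeq accession and 31 were counted on at least 1 array, among 18225 counted genes of 22439 named genes. *AKR1C2*, *TRIM16* and *TRIM16L* had no probe under a matched accession. The *NFE2L2* probe was not well above background in either channel of any of the 8 arrays, so the level of the factor's own transcript is given for no line.

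Expression was measured on 8 Agilent arrays, each carrying RNA of treated cells in red (Cy5) and of control cells of the same line in green (Cy3). *miR-150-3p* was transfected into EBC-1 and SK-MES-1, which are labelled lung squamous cell carcinoma (1 array each, control labelled mock and also as not transfected). SBC-3, labelled small cell lung cancer, received 1 of 3 siRNAs against *DONSON* (siDONSON-1, -2 and -3, 1 array each, the same control labels). A549, labelled lung adenocarcinoma, had *LOXL2* edited with CRISPR/Cas9 and was compared with unedited A549 on 3 arrays (GE1, GE2 and GE3), and the labels do not say whether these are clones. No label says whether arrays of a group came from separate cultures, so the p-values measure only the spread between these arrays. The paper's aim was to study *miR-150-3p* as a tumor suppressor in lung squamous cell carcinoma and the cancer-promoting genes under its control.

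NRF2 is held at a low level by KEAP1, an adaptor that brings it to a CUL3 ubiquitin ligase. When electrophiles or oxidants modify KEAP1, NRF2 escapes, pairs with a small MAF protein and binds antioxidant response elements near genes for glutathione and thioredoxin metabolism, NADPH supply, drug metabolism and export. Mutations that keep NRF2 active are found in lung cancers, and A549 is known for a *KEAP1* mutation.

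The letters of the antioxidant response element, TGACNNNGC, were searched on both strands of the RefSeq promoter windows (build GRCh38.p14, 250 bases before to 50 after a start site). The genes had 33 windows for 26 of them, and 10 windows of 9 genes held the letters (30.3% of the windows), against 13.3% of all 35116 windows of the same length. The matches are a description of the sequence and not of binding. A match is shown for some of these genes, with the matched letters in capitals and 5′ to 3′ on the strand that carries them. They are *GPX2*, *UGT1A6* and *PGD*, which were high in A549 and were called in a treatment, *ME1* and *TXNRD1*, which were low in SBC-3, *GCLM*, which was not, and the regulator *KEAP1*. Other genes that the values below turn on, among them *NR0B1*, *GCLC*, *TKT*, *OSGIN1*, *NQO1* and *ABCC2*, had no match in their windows.
GPX2, chr14:64942848-64942877, opposite strand to the gene, build GRCh38.p14: catccccaggaTGACTTAGCaaaaacaggt
UGT1A6, chr2:233692782-233692811, strand of the gene, build GRCh38.p14: aggtgaaagcTGACACGGCcatagttggtt
PGD, chr1:10398853-10398882, opposite strand to the gene, build GRCh38.p14: gagcacctagaTGACATTGCcccggcgagg
ME1, chr6:83431169-83431198, strand of the gene, build GRCh38.p14: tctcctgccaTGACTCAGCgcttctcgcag
TXNRD1, chr12:104215670-104215699, strand of the gene, build GRCh38.p14: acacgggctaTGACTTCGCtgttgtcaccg
GCLM, chr1:93909445-93909474, opposite strand to the gene, build GRCh38.p14: ctggaagacaaTGACTAAGCagaaatcgta
KEAP1, chr19:10502806-10502835, strand of the gene, build GRCh38.p14: acttttattgTGACACGGCgggcgcccggc

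A level is the log2 of the processed intensity of one channel after scaling between arrays, and a ratio is the log2 of treated over control on one array. A value is called not well above background where the scanner software did not flag it as well above. The detection limit is the lowest signal so flagged on an array and channel, and flagged probe means can still lie below it. A fold against a value without the flag or below the limit is given as "at least". Of the spots used per array, 41.1% to 46.4% exceeded background clearly in green and 48.5% to 56.2% in red. The targeted genes were lower in their groups: *DONSON* fell by 2.02 (SE 0.157) in siDONSON and *LOXL2* fell by 2.58 (SE 0.23) in edited A549 on the log2 scale (limma, Benjamini-Hochberg adjusted p = 0.00168 and 0.00126). Of the markers of the labelled cell types, *KRT5*, *KRT6A* and *DSG3* were not well above background in either squamous line, *NKX2-1* and *SFTPB* were not in A549, and *EPCAM* and *CDH1* were not in SBC-3, which had *NEUROD1*, *CHGA* and *SYP*. Between arrays of A549 the SD of the log2 difference was 0.085 to 0.092 in Cy3 and 0.132 to 0.173 in Cy5, with a log2 intensity limit of 8. In SBC-3 it was 0.127 to 0.138 and 0.374 to 0.496. Over the genes described here it was 0.067 to 0.077 and 0.169 to 0.329 in A549. In SBC-3 it was 0.286 to 0.568 and 0.483 to 0.682 over these genes. The Cy3 RNAs of a line may be 1 RNA, and the tests of ratios leave out the control's own spread. Probes of close relatives (the *AKR1C* and *CYP4F* genes, the *UGT1A* locus with shared exons, and the ferritins with their pseudogenes) may share signal, and the values of these genes are uncertain in that respect.

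In control cells the genes were highest in A549. Of the 31 genes, 13 (41.9%) were at least 2-fold higher in A549 than in each of the 3 other lines, against 3.52% of all 18225 genes. All 31 were also counted on the SK-MES-1 array, *GPX2* and *ALDH1A1* only through dim red signals there (4.75 and 4.49). Of the 2 *UGT1A6* probes, 1 was counted on the 3 A549 arrays alone. The filter may therefore favour A549 for these genes. The 13 were *GPX2*, *PGD*, *AKR1B1*, *AKR1B10*, *AKR1C1*, *AKR1C3*, *ALDH3A1*, *ALDH1A1*, *CYP4F3*, *UGT1A6*, *ABCC2*, *HMOX1* and *PIR*. A549 had the highest mean level for 24 of 31 genes (22.5% of all genes), and SBC-3 the lowest for 21 (28.4% of all genes). EBC-1 and SK-MES-1 have 1 control channel each, and none of these differences was tested. RNA came from whole cultures, so fewer expressing cells and less RNA per cell cannot be told apart. Line and disease type cannot be told apart with 1 line of each type outside the squamous pair.

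**Figure D1:**
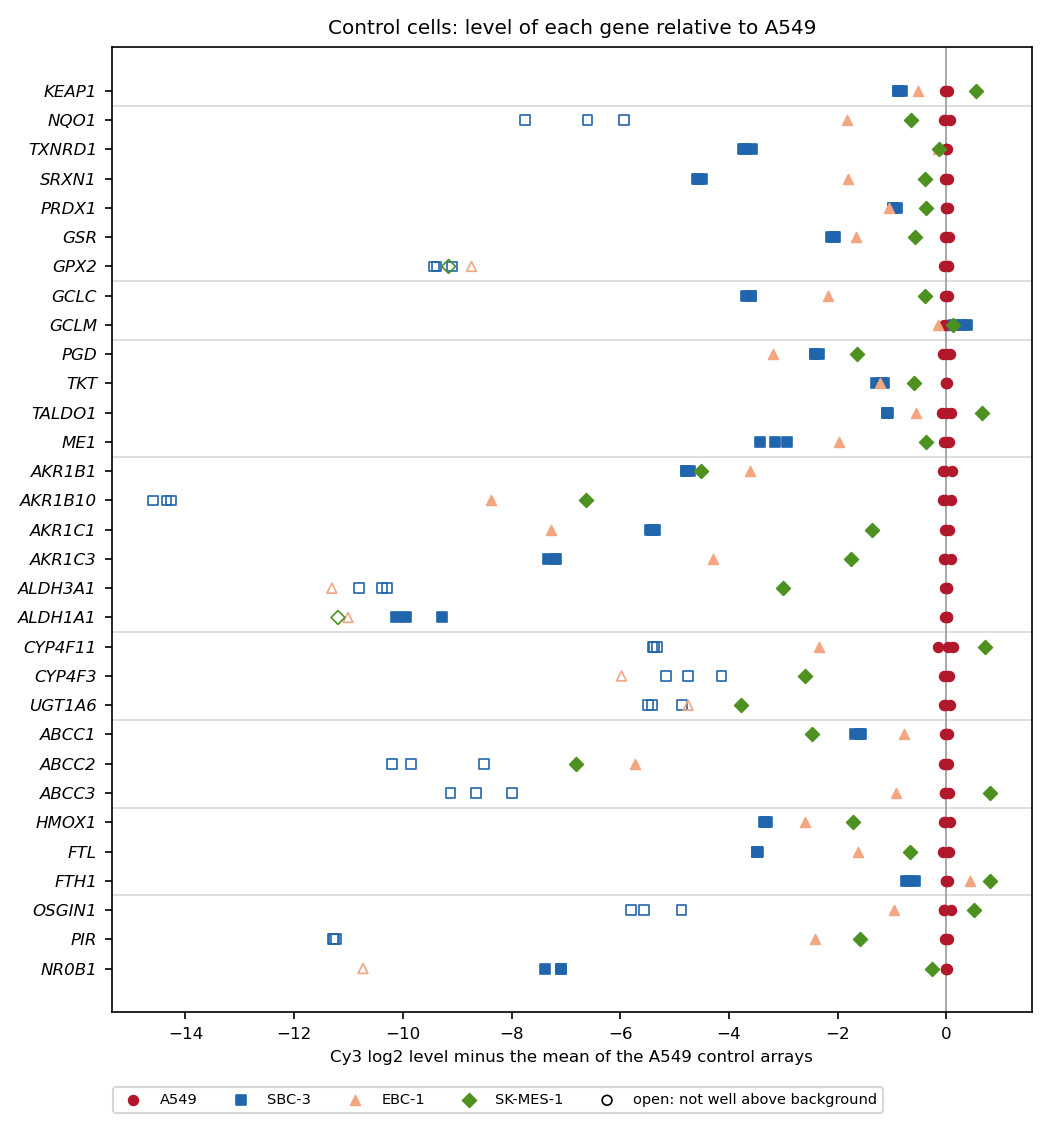
Cy3 (control cell) log2 level of each counted gene minus the mean of the 3 A549 control channels, 1 symbol per array, with open symbols for values not well above background and grey lines between roles. A549 is the rightmost line for 24 of 31 genes, and 11 genes were not well above background in SBC-3.

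The gap depended on the line. The median difference of A549 over EBC-1 was 2.18 on the log2 scale for the 31 genes (−0.07 for all genes), over SK-MES-1 it was 0.65 (0.03 for all genes) and over SBC-3 it was 3.63 (−0.03 for all genes). At least 2-fold differences were found for 23 genes over EBC-1 (14.6% of all genes), for 14 over SK-MES-1 (12.9%) and for 27 over SBC-3 (14.8%). SK-MES-1 was above A549 for 7 genes and EBC-1 for 1, *FTH1*. A549 was thus higher for 24 of 31 genes against SK-MES-1 (51.4% of all genes compared) and for 30 against EBC-1 (47.4%). Of the 31 genes, 25 were well above background in the control channel of EBC-1, 29 in SK-MES-1, 20 in SBC-3 and 31 in A549. SBC-3 was at least 2-fold below each other line for 11 genes (6.03% of all genes). EBC-1 was at least 2-fold above both SK-MES-1 and SBC-3 for *ABCC2* alone (1 of 31, against 7.13% of all genes).

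Among the regulators, *KEAP1* was highest in SK-MES-1 and lowest in SBC-3. Its Cy3 level was 11.19, 11.17 and 11.22 on the A549 arrays, 10.38, 10.30 and 10.31 on the SBC-3 arrays, 11.73 in SK-MES-1 and 10.67 in EBC-1. SK-MES-1 was 1.45-fold above A549, 2.08-fold above EBC-1 and 2.64-fold above SBC-3. A549 was 1.82-fold above SBC-3.

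The thiol and quinone reductases had their widest range in *GPX2*, a glutathione peroxidase of epithelia. *GPX2* had a Cy3 level of 13.73, 13.73 and 13.65 in A549 and was not well above background in the control channel of any other line. A549 was at least 317-fold above EBC-1, 490-fold above SK-MES-1 and 364-fold above SBC-3. *NQO1*, which reduces quinones in a single step and is a common readout of NRF2, had a level of 11.35, 11.24 and 11.24 in A549, 10.63 in SK-MES-1 and 9.45 in EBC-1. It was not well above background in SBC-3, so that A549 was at least 64.4-fold above that line, 3.54-fold above EBC-1 and 1.57-fold above SK-MES-1. *TXNRD1* (thioredoxin reductase) and *SRXN1* (sulfiredoxin, which repairs oxidized peroxiredoxins) were 12.8-fold and 23.5-fold higher in A549 than in SBC-3. *TXNRD1* was within 1.11-fold of A549 in both squamous lines. *PRDX1*, a peroxiredoxin, and *GSR*, glutathione reductase, were 1.94-fold and 4.24-fold higher in A549 than in SBC-3.

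Glutamate-cysteine ligase makes the first step of glutathione synthesis, and its subunits differed in pattern. The catalytic subunit *GCLC* was 12.3-fold higher in A549 than in SBC-3, 4.54-fold higher than in EBC-1 and 1.31-fold higher than in SK-MES-1. The modifier subunit *GCLM* lay within 1.34-fold across all 4 lines, with means of 12.28 in A549, 12.55 in SBC-3, 12.39 in SK-MES-1 and 12.12 in EBC-1. It was the only counted gene with a higher mean in SBC-3 than in A549.

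Of the NADPH-supplying enzymes, *PGD*, the 6-phosphogluconate dehydrogenase of the pentose phosphate pathway, was past 2-fold over every line. Its Cy3 level was 14.57, 14.64 and 14.71 in A549, 12.23, 12.21 and 12.29 in SBC-3, 12.99 in SK-MES-1 and 11.45 in EBC-1. The A549 excess was 3.14-fold over SK-MES-1, 5.26-fold over SBC-3 and 9.14-fold over EBC-1. *TKT* (transketolase) and *TALDO1* (transaldolase), of the non-oxidative branch, were 2.31-fold and 2.13-fold higher in A549 than in SBC-3, and *ME1* (malic enzyme) was 9.02-fold higher.

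The 6 counted aldo-keto reductases and aldehyde dehydrogenases, which reduce or oxidize reactive carbonyls, were all past 2-fold in A549 over every line. *AKR1B1*, aldose reductase, had a level of 16.97, 16.82 and 16.84 in A549, 12.09, 12.16 and 12.09 in SBC-3, 12.36 in SK-MES-1 and 13.27 in EBC-1, a 12.2-fold to 27.1-fold excess. *AKR1B10*, which reduces retinal and lipid aldehydes, had 17.57, 17.46 and 17.43 in A549, 10.87 in SK-MES-1 and 9.12 in EBC-1 and was not well above background in SBC-3. The excess of A549 was 98.6-fold, 331-fold and at least 5030-fold in this order. Both *AKR1B10* probes gave it, with log2 differences to SK-MES-1 of 6.59 and 6.66.

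*AKR1C1* and *AKR1C3* act on steroids, prostaglandins and aldehydes. The *AKR1C1* level was 15.52, 15.44 and 15.46 in A549, 10.02, 10.08 and 10.10 in SBC-3, 14.11 in SK-MES-1 and 8.20 in EBC-1. The *AKR1C3* level was 16.81, 16.69 and 16.70 in A549, 9.40, 9.54 and 9.56 in SBC-3, 14.97 in SK-MES-1 and 12.45 in EBC-1. SK-MES-1 was nearest to A549 for both, with a 2.57-fold and a 3.39-fold gap, and EBC-1 was lowest for *AKR1C1* (155-fold below A549) while SBC-3 was lowest for *AKR1C3* (151-fold below A549).

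*ALDH3A1*, which clears lipid aldehydes, had a level of 14.37, 14.37 and 14.34 in A549 and 11.35 in SK-MES-1, an 8.04-fold gap, and was not well above background in EBC-1 and SBC-3. *ALDH1A1*, a retinal dehydrogenase, had 14.90, 14.85 and 14.90 in A549 and 4.77, 4.94 and 5.61 in SBC-3, and was not well above background in EBC-1 and SK-MES-1. The excess of A549 was at least 720-fold over EBC-1 and at least 1110-fold over SK-MES-1, and at least 758-fold over SBC-3, where 2 of the 3 values lay below the detection limit of their arrays.

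The 3 oxidation and conjugation enzymes were not well above background in SBC-3. *CYP4F3* and *CYP4F11* hydroxylate fatty acids, leukotrienes and vitamin K. *CYP4F3* had a level of 8.74, 8.71 and 8.79 in A549 and 6.14 in SK-MES-1 (a 6.09-fold gap), and was not well above background in EBC-1 and SBC-3. *CYP4F11* was 1.63-fold higher in SK-MES-1 than in A549 and at least 7.67-fold higher in A549 than in SBC-3. *UGT1A6*, a glucuronosyltransferase of phenols, had 8.18, 8.18 and 8.28 in A549 and 4.44 in SK-MES-1, below the detection limit of that array although a probe of it was well above background, a gap of at least 10.9-fold. It was not well above background in EBC-1 and SBC-3, at least 7.05-fold and 8.11-fold below A549.

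The exporters of glutathione and glucuronide conjugates each had their own order of lines. *ABCC2* (MRP2) had a level of 12.84, 12.83 and 12.77 in A549, 5.997 in SK-MES-1 and 7.091 in EBC-1 and was not well above background in SBC-3, with gaps of 113-fold, 52.9-fold and at least 197-fold in this order. *ABCC1* (MRP1) was lowest in SK-MES-1, 5.57-fold below A549. *ABCC3* (MRP3) was by the mean of its probes 1.74-fold higher in SK-MES-1 than in A549. Its 2 probes differed in direction, with A549 minus SK-MES-1 at 0.21 and −1.80 on the log2 scale, so this order is uncertain. It was at least 96.5-fold higher in A549 than in SBC-3.

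*HMOX1*, heme oxygenase, had a level of 14.55, 14.46 and 14.48 in A549, 11.20, 11.16 and 11.14 in SBC-3, 12.77 in SK-MES-1 and 11.89 in EBC-1. A549 was 3.31-fold above SK-MES-1, 6.07-fold above EBC-1 and, by 3.33 on the log2 scale, above SBC-3. *FTL* and *FTH1*, the light and heavy chains of the iron store ferritin, did not share an order: *FTL* was highest in A549 (11.2-fold over SBC-3) and *FTH1* in SK-MES-1 (1.75-fold over A549).

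Among the other targets, *PIR* (pirin, an iron-binding nuclear protein) had a level of 13.97, 13.94 and 13.92 in A549, 12.35 in SK-MES-1 and 11.52 in EBC-1 and was not well above background in SBC-3. The gaps were 3.02-fold, 5.36-fold and at least 430-fold. *NR0B1* (DAX1, a nuclear receptor that acts as a repressor) split the lines in pairs. Its level was 13.81, 13.80 and 13.82 in A549 and 13.55 in SK-MES-1, against 6.73, 6.43 and 6.72 in SBC-3 and no signal well above background in EBC-1. A549 was 1.20-fold above SK-MES-1, 145-fold above SBC-3 and at least 341-fold above EBC-1. *OSGIN1*, an oxidative stress-induced growth inhibitor, was highest in SK-MES-1, 1.43-fold over A549, and not well above background in SBC-3.

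The treated cells of A549 and SBC-3 were tested, since their Cy5 RNAs are labelled as different edited samples or different siRNAs. The labels do not say whether these came from separate cultures, and line and treatment cannot be told apart there. Of 31 genes, 30 were higher in edited A549 than in siDONSON-transfected SBC-3 (limma, Benjamini-Hochberg), against 29.5% of all genes higher and 31.1% lower. With a difference of at least 2-fold as well, 28 of 31 were higher (17.5% of all genes). In the Cy5 channel of SBC-3, 6 genes were not well above background on any array and 4 on some, and with levels below the detection limit set to it the counts were again 30 and 28. *NQO1* had a Cy5 level of 10.95, 10.96 and 10.82 in A549 and 4.51, 4.74 and 3.25 in SBC-3, where 1 of the 3 arrays was well above background. With levels below the detection limit set to it, A549 was at least 81.1-fold higher (log2 6.34, limma SE 0.119, adjusted p = 3.5e-08). The limit replaced the lowest SBC-3 value, so this SE and p understate the spread between the arrays. Over the 14 alternatives tried, the limma adjusted p of *NQO1* was at most 0.000208. *HMOX1* had 14.91, 15.09 and 15.07 against 11.69, 10.54 and 11.36, a difference of 3.83 (SE 0.291, adjusted p = 6.81e-05). *KEAP1* (0.60, SE 0.125, adjusted p = 0.00604) and *FTH1* (0.66, SE 0.137, adjusted p = 0.00596) had the smallest differences that passed. *GCLM* did not pass, at −0.15 (SE 0.152, adjusted p = 0.428). In the same comparison 16 of the 19 tested cell type markers also differed, 9 higher and 7 lower in A549, among them *KRT18* at 8.04 and, with A549 at its detection limit, *NEUROD1* at −4.33. Their part in the difference was not tested.

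In *LOXL2*-edited A549, *GPX2*, *UGT1A6*, *NR0B1* and *GCLC* were lower and *ABCC3* was higher than in unedited cells. These 5 of 31 genes passed the test (limma, group mean against 0), 4 lower against 6.77% of all 15531 genes tested and 1 higher against 7.58%. The median ratio of the 31 genes was −0.18, against 0.02 for all genes. By the mean, 11 of 31 genes were above 0, against 53.4% of all genes. On 3 of 3 arrays 18 genes were below 0 and 9 above it, and 4 were mixed, a count not made over all genes.

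**Figure D2:**
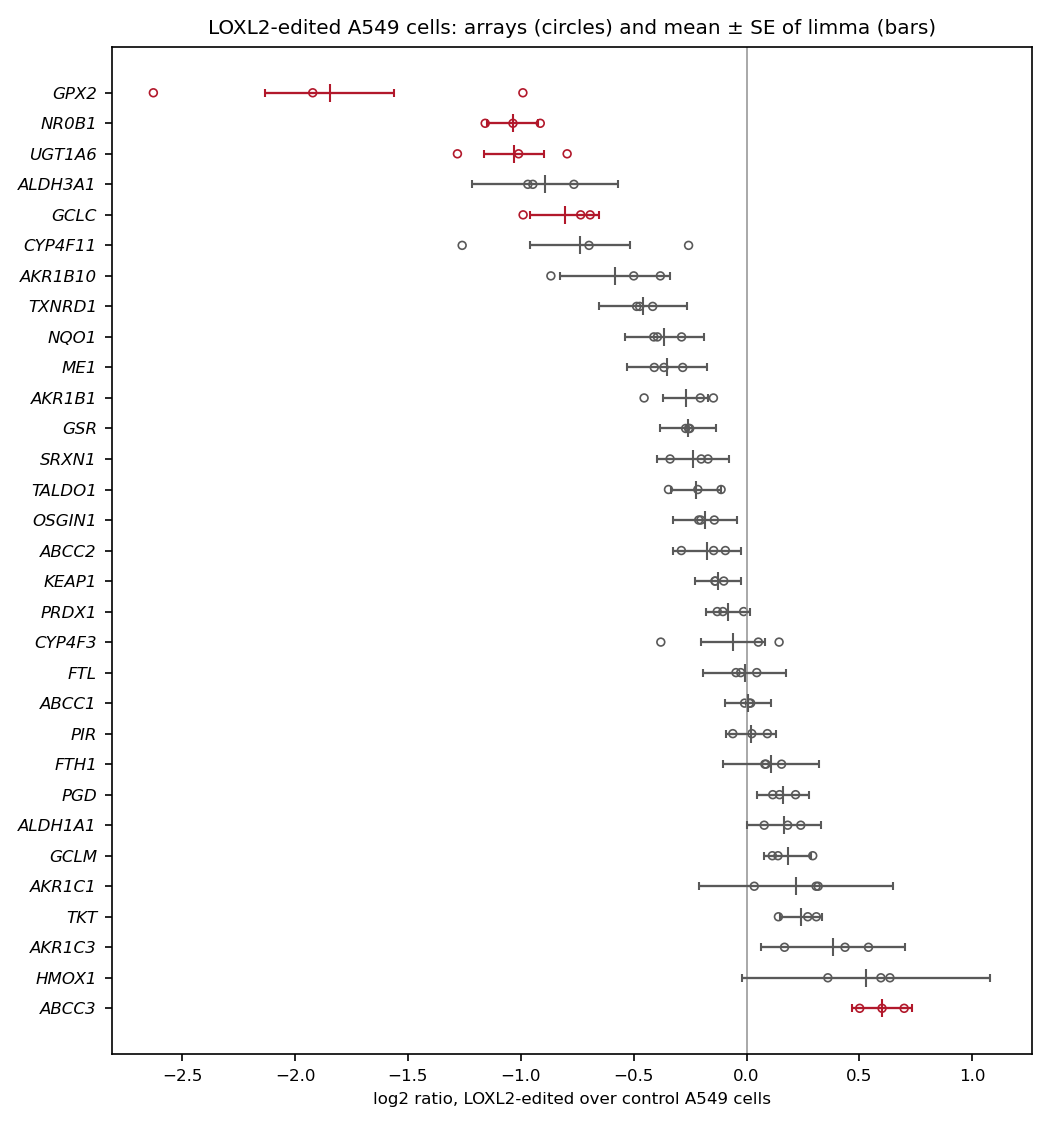
Log2 ratio of *LOXL2*-edited over control A549 cells for the 31 genes, with the 3 arrays as circles and the mean with the standard error of limma as bars, ordered by mean and red where the test passed. *GPX2* lies farthest below 0, from −2.63 to −0.99, and *ABCC3* farthest above.

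*GPX2* had ratios of −2.63 (GE1), −1.92 (GE2) and −0.99 (GE3), a mean of −1.85 (SE 0.286, adjusted p = 0.0105), which is 3.60-fold lower. All 3 arrays were below 0, with GE3 nearest to it. Without GE2 the adjusted p reached its highest value over the alternatives, 0.0678.

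*NR0B1* had −1.16, −1.03 and −0.91, a mean of −1.04 (SE 0.113, adjusted p = 0.00344), and passed under each of the 17 alternatives tried. *UGT1A6* had −1.28, −0.80 and −1.01, a mean of −1.03 (SE 0.133, adjusted p = 0.0140), with probe means of −1.01 and −1.05. Both were below 0 on 3 of 3 arrays. *GCLC* had −0.69, −0.99 and −0.74, a mean of −0.81 (SE 0.152, adjusted p = 0.0147), while its partner *GCLM* had 0.29, 0.14 and 0.11 (mean 0.18, adjusted p = 0.278).

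*ABCC3* had 0.50, 0.60 and 0.70, a mean of 0.60 (SE 0.133, adjusted p = 0.0379). Its 2 probes gave 0.31 and 0.89, and it was not called with the brighter probe alone. When the mean of the other groups' arrays was subtracted to remove dye bias, its value was −0.13 (adjusted p = 0.522), the only called value of any comparison to change sign under the alternatives tried. For *ABCC3* that mean held the 2 *miR-150-3p* arrays alone (mean 0.735), so dye bias and *miR-150-3p* transfection cannot be told apart in it. The members called after leaving out an edited array were fewer: *GPX2* and *NR0B1* without GE1 or without GE3, and *NR0B1* alone without GE2.

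The remaining genes did not pass. *ALDH3A1* had −0.77, −0.97 and −0.95 (adjusted p = 0.128), *CYP4F11* −1.26, −0.70 and −0.26 (adjusted p = 0.083) and *AKR1B10* −0.87, −0.50 and −0.38 (adjusted p = 0.171). *NQO1* had −0.40, −0.29 and −0.41 (mean −0.36, adjusted p = 0.223) and *TXNRD1* −0.42, −0.49 and −0.47 (mean −0.46, adjusted p = 0.156). *HMOX1* had 0.36, 0.64 and 0.60 (mean 0.53, adjusted p = 0.562). The model shares 1 spread across the 3 groups. The SD of *HMOX1* was 0.15 in edited A549 and 2.48 between the *miR-150-3p* arrays, so this p is not a measure of the edited arrays alone. *KEAP1* had −0.14, −0.14 and −0.10 (adjusted p = 0.453). The edited cells also differed in markers of cell state: 6 of 15 tested markers passed, with *EPCAM* at −2.43, *KRT18* at −0.74 and *KRT8* at −0.53 lower and *CDH1* at 1.36, *NAPSA* at 0.999 and *ACTA2* at 0.93 higher. The summed level of the 4 epithelial markers was 16.83 to 16.88 in control and 16.02 to 16.22 in edited cells, and that of the 3 immune markers 9.43 to 9.52 and 9.76 to 9.96. Their part in the changes above was not tested.

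In siDONSON-transfected SBC-3, *TKT* and *ABCC1* were lower, 2 of the 21 genes with a ratio on all 3 arrays, against 3.21% of all 14454 genes. *OSGIN1* also passed with a positive mean, 1 of 21 against 4.01% of all genes, but its control level was too dim to give a direction. *OSGIN1* had ratios of 0.94 (siDONSON-1), 1.104 (siDONSON-2) and 0.61 (siDONSON-3), a mean of 0.89 (SE 0.141, adjusted p = 0.0179), but it was not well above background in the Cy3 channel of any of these arrays. With the control at the detection limit the log2 ratio was bounded only at −0.18 or above, so that a rise is not shown. With normexp and loess the value was 0.07 (adjusted p = 0.454).

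*TKT* had −0.69, −0.48 and −0.62 (mean −0.60, SE 0.093, adjusted p = 0.0174), a 1.51-fold decrease. *ABCC1* had −0.39, −0.73 and −0.30 (mean −0.47, SE 0.101, adjusted p = 0.0346), a 1.39-fold decrease. Both were below 0 with each siRNA. These and *OSGIN1* lost the call without siDONSON-1, without siDONSON-3 and with the spread of these 3 arrays alone. Each left 0 of the genes described here called, against 465, 97 and 26 of all genes in this order. Over the alternatives tried, *ABCC1* missed the threshold in 8 of 17, *TKT* in 3 of 17 and *OSGIN1* in 4 of 16. *TALDO1*, of the same pathway branch as *TKT*, had −0.39, −0.09 and −0.41 (adjusted p = 0.143).

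Ratios of several genes differed in sign between the siRNAs or lay near 0 with one of them. *AKR1C1* had −0.01, −1.04 and −0.75, *AKR1C3* 0.24, −1.25 and −0.58 and *HMOX1* 0.48, −0.62 and 0.23, and none of these passed (adjusted p = 0.416, 0.33 and 0.98). *KEAP1* had 0.29, 0.08 and 0.04 (adjusted p = 0.436). *NQO1* had a ratio on the siDONSON-1 array alone, −0.16, with the control channel not well above background. Over the 21 genes, 3 were above 0 and 5 below 0 with each siRNA, and 13 were mixed, a count not made over all genes. By the mean, 8 of the 21 were above 0, against 54.5% of all genes.

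**Figure D3:**
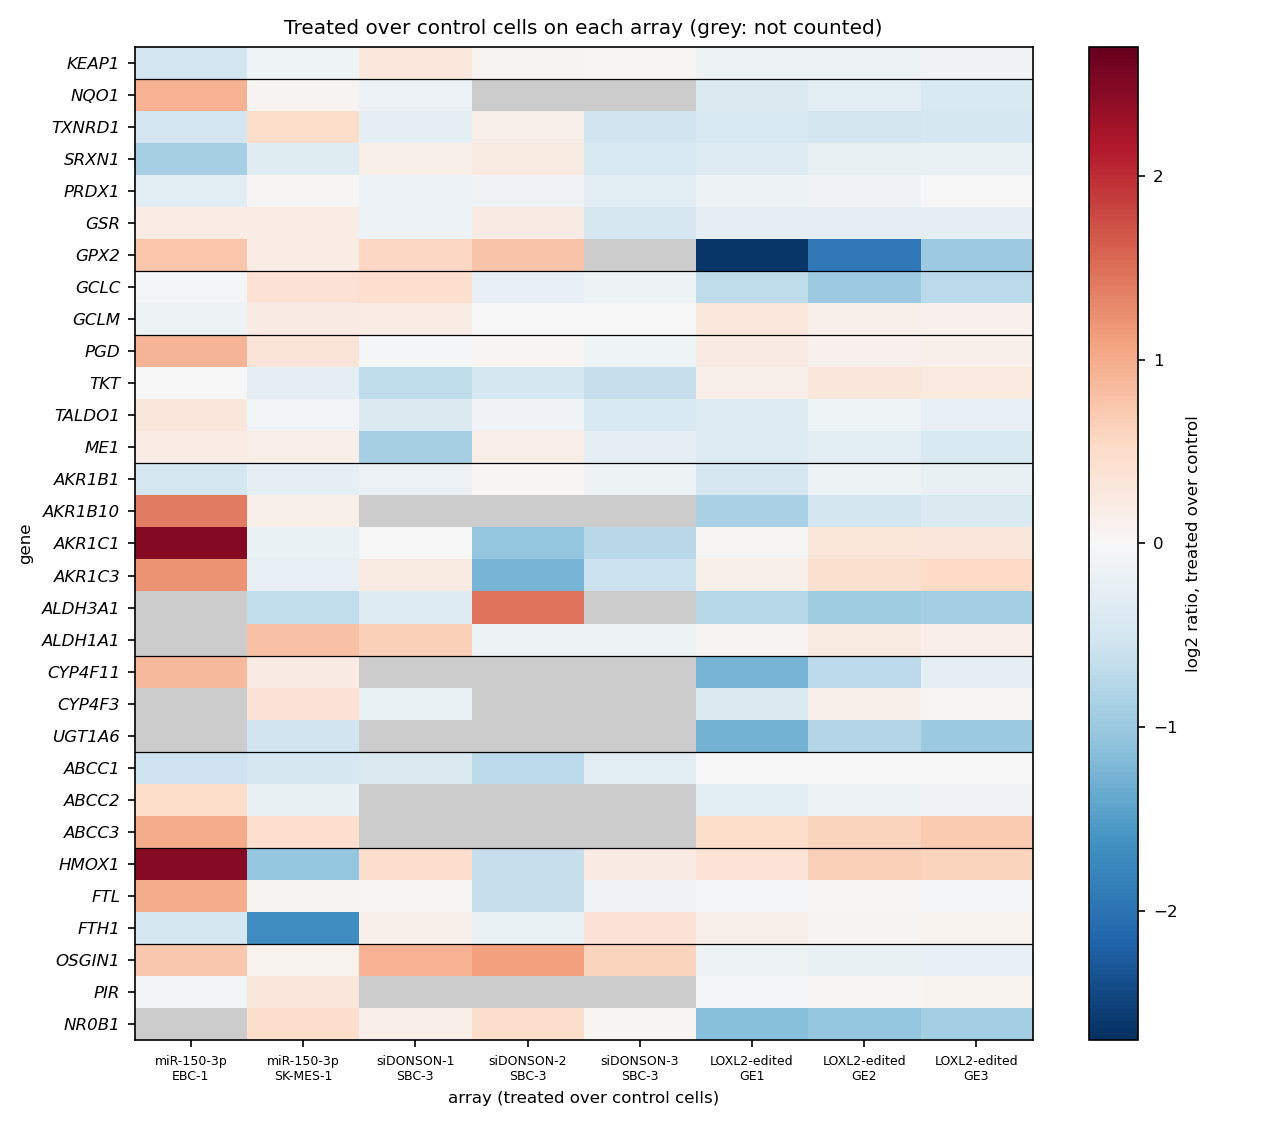
Log2 ratio of treated over control cells for each counted gene (rows, grouped by role with black lines) on each of the 8 arrays (columns), red for higher and blue for lower, grey where the gene was not counted. *AKR1C1* and *HMOX1* in EBC-1 (2.48 and 2.45) and *GPX2* in GE1 (−2.63) are the extremes, and the siDONSON columns hold most of the grey.

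The difference between the edited A549 and the siDONSON ratios was tested on 21 genes. It passed for *NR0B1* at −1.27 (SE 0.157, adjusted p = 0.00902), *OSGIN1* at −1.07 (SE 0.198, adjusted p = 0.0215) and *TKT* at 0.84 (SE 0.131, adjusted p = 0.0133), 2 lower against 3.79% of all 13656 genes and 1 higher against 3.51%. The *OSGIN1* value rests on the dim SBC-3 control: the siDONSON bound of −0.18 lies at the edited mean of −0.19, so no difference is shown for it. It was −0.17 (adjusted p = 0.191) with normexp and loess and missed the threshold in 5 of 14 alternatives. *NR0B1* had 0.19, 0.48 and 0.05 with the siRNAs and did not overlap its ratios in edited cells. *GCLC* missed the threshold at −0.84 (SE 0.212, adjusted p = 0.0531), so its change in edited cells is not shown to differ from the siDONSON value of 0.03. *GPX2* had ratios of 0.55 (siDONSON-1) and 0.765 (siDONSON-2), above 0 where edited cells were below it, but with the control channel not well above background, and none with siDONSON-3. *UGT1A6* and *ABCC3* had no ratio with any siRNA. The difference could not be fitted for these 3 genes.

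In *miR-150-3p*-transfected cells, of 26 genes with a ratio in both lines, *PGD* alone passed the test (EBC-1 0.91, SK-MES-1 0.35, mean 0.63, SE 0.139, adjusted p = 0.0456), 1 higher against 2.47% of all 14230 genes and 0 lower against 2.90%. At an unadjusted p under 0.05 in limma, 5 were higher (15.1% of all genes) and 5 lower (14.9%). *PGD* passed in 9 of the 17 alternatives tried and missed in 8. Each line has 1 array, so values within a line have no replicate, and only the scanner software's error, which covers noise within an array, stands beside them.

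**Figure D4:**
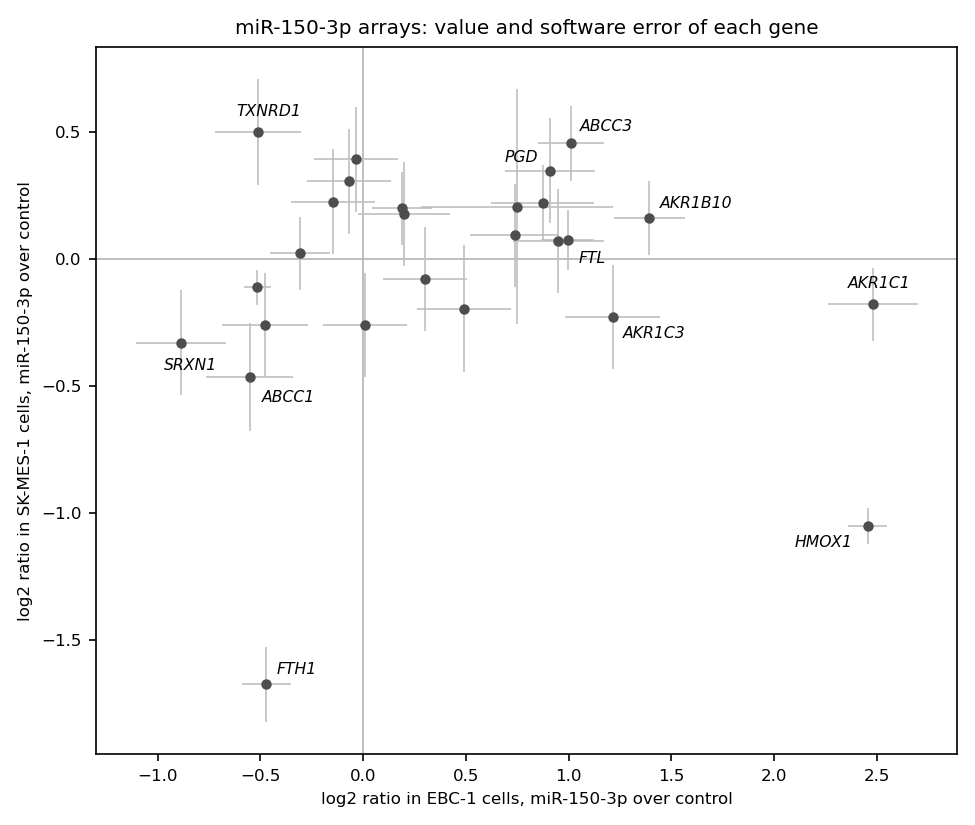
Log2 ratio of *miR-150-3p*-transfected over control cells in EBC-1 (horizontal) and SK-MES-1 (vertical) for the 26 genes with a ratio on both arrays, with the error of the scanner software (1 SE) as bars. *HMOX1* lies at 2.45 and −1.05, *AKR1C1* at 2.48 and −0.18, and *FTH1* at −0.47 and −1.67.

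In EBC-1, 5 of 26 genes were past 2-fold higher, against 5.96% of all genes, and 0 lower, against 6.04%. They were *AKR1C1* at 2.48 (5.58-fold), *HMOX1* at 2.45 (5.48-fold), *AKR1B10* at 1.39, *AKR1C3* at 1.21 and *ABCC3* at 1.01. *FTL* at 0.996, *NQO1* at 0.95 and *PGD* at 0.91 were next, and *SRXN1* had the lowest value at −0.89. Against the 95% limits of the software error, 11 genes were higher (21.6% of all genes) and 7 lower (20.0%). *KEAP1* had −0.51.

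In SK-MES-1, 0 of 31 genes were past 2-fold higher (2.57% of all genes) and 2 were past 2-fold lower (1.27%): *FTH1* at −1.67 and *HMOX1* at −1.05. The 3 *FTH1* probes gave −1.73, −1.65 and −1.64. *AKR1C1* had −0.18, *AKR1C3* −0.23, *AKR1B10* 0.16 and *NQO1* 0.07. Against the software limits 3 genes were higher (9.76% of all genes) and 4 lower (9.46%), and *KEAP1* had −0.11.

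Of the 26 genes, 11 had opposite signs in the 2 lines, a count not made over all genes. *HMOX1* and *TXNRD1* (−0.51 and 0.50) were outside the software limits both times. How many of all genes were outside the limits on both arrays, with opposite or the same sign, was not counted. The 10 spots of *HMOX1* on each array gave 2.40 to 2.54 in EBC-1 and −1.11 to −1.01 in SK-MES-1. Opposite signs past 2-fold in both lines were found for 7 of 14230 genes (0.0492%), of which *HMOX1* was 1. The same sign outside the limits on both arrays was found for *ABCC3* (1.01 and 0.46), which was higher, and for *ABCC1* (−0.55 and −0.46) and *FTH1*, which were lower. In the test across lines these had adjusted p-values of 0.0589, 0.0548 and 0.0532. *GPX2* was not well above background in the control channel of either line.

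The wider pathway was followed in 29 further genes (cofactors and repressors of NRF2, glutathione transferases, other reductases and transporters). In control cells 1 of the 29 was at least 2-fold higher in A549 than in every other line (3.52% of all genes). It was *CES1*, a carboxylesterase, 10.7-fold over SK-MES-1 and at least 20.8-fold over EBC-1 and 23.9-fold over SBC-3, whose values lay below the detection limit. *SLC7A11*, the cystine importer, was 1.29-fold higher in SK-MES-1 than in A549 and 18.5-fold higher in A549 than in SBC-3. *GSTP1*, a glutathione transferase, had a mean level of 8.86 in EBC-1 and 16.64 to 17.13 in the other lines. In treated cells 23 of the 29 were higher in A549 than in SBC-3 (29.5% of all genes) and 2 lower (31.1%).

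In *LOXL2*-edited A549, 1 of these 29 genes was higher (7.58% of all genes) and 4 were lower (6.77%). *CES1* had ratios of −2.96, −3.45 and −3.56 (mean −3.32, SE 0.149, adjusted p = 8.43e-05) and *GSTM3*, a glutathione transferase, −1.51, −1.15 and −1.17 (mean −1.28, adjusted p = 0.00231). *MAFK* (0.85, adjusted p = 0.021) and *MAFF* (−0.997, adjusted p = 0.0162), small MAF partners of NRF2, moved in opposite directions, and *NFE2L3*, a relative of NRF2, had −0.58 (adjusted p = 0.017). *SLC7A11* had a mean of −0.14 (adjusted p = 0.89).

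With siDONSON, 2 of 28 were higher (4.01% of all genes) and 1 lower (3.21%). *SQSTM1* (p62, which binds KEAP1) had 0.80, 0.73 and 0.68 (adjusted p = 0.0348) and *BACH1*, a repressor of *HMOX1*, 0.80, 0.45 and 0.63 (adjusted p = 0.0481). *ABCB6*, a mitochondrial transporter, had −0.86, −0.47 and −0.69 (adjusted p = 0.0262). *SLC7A11* ranged from −2.53 to 1.05 between the siRNAs.

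With *miR-150-3p*, 3 of 28 were higher (2.47% of all genes) and 1 lower (2.90%). *SQSTM1* had 1.36 and 0.41 in EBC-1 and SK-MES-1 (adjusted p = 0.0445). *EPHX1*, an epoxide hydrolase (mean 0.66, adjusted p = 0.0362), and *NFE2L1*, a relative of NRF2 (mean 0.43, adjusted p = 0.0499), were also higher. *CBR1*, carbonyl reductase, had −1.28 and −0.78 (adjusted p = 0.0187). *SLC7A11* had 1.30 and 0.50 (adjusted p = 0.401).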

How the data were processed

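RNA of treated (Cy5) and control (Cy3) cells was hybridized to 8 two-colour arrays on 1 slide, without dye swap. The authors deposited scanner output (Agilent Feature Extraction 12.1.1.1 per the file headers, array annotation build hg19). The deposited processed intensity of each channel was background-subtracted and dye-normalized by that software, and the deposited table of log10 ratios differed from the scanner's by 0. The number of arrays limits the precision. Non-control spots (60901 per array) without outlier flags (81 to 133) were averaged per probe. A probe counted where well above background in at least 1 channel, and a gene is the mean of its counted probes. Names came through RefSeq accessions (31104 of 58201 probes), with the gene table used for names only. Ratios of all 3 groups were fitted in 1 limma model (limma 3.58.1, R 4.3.3, 5 residual degrees of freedom), with each mean tested against 0 and Benjamini-Hochberg adjustment over all genes (threshold 0.05). Dye bias of a gene is not removed by it. Levels were scaled between arrays with Aquantile. A dim channel was set to the lowest signal well above background on its array where that was higher. The procedures were tested on simulated data. The members, lists, markers and the named-gene rule (all members, with every array for those called or past 2-fold and for the regulators, *NQO1* and *HMOX1*) were chosen with earlier results of these data known. Alternatives covered background, centring, filters, probes, spread, dye bias, scaling, channel and left-out arrays. The normexp alternative (offset 50) used median spot signals, since mean signals were not in the columns used here. No batch could be fitted, as all arrays share the slide. Of the further pathway genes chosen, 1 is not reported here.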

Additional observations from a re-analysis of the deposited data

Results flagged for a closer look

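Ratios of *NR0B1* (−1.27), *OSGIN1* (−1.07) and *TKT* (0.84) differed between *LOXL2*-edited A549 and siDONSON-transfected SBC-3 in the limma test of the difference, as log2 values of edited A549 minus siDONSON. Line and treatment cannot be told apart in it, and the *OSGIN1* value rests on an SBC-3 control channel not well above background, with a siDONSON bound of −0.18 against −0.19 in edited cells, so that no difference is shown for it. *HMOX1* (EBC-1 2.45, SK-MES-1 −1.05) and *TXNRD1* (−0.51 and 0.50) moved in opposite directions after *miR-150-3p* transfection, outside the software's limits each time. With 1 array a line, that difference was not tested, and the share of all genes outside the limits on both arrays was not counted.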

How the results depend on the processing

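In *LOXL2*-edited cells 5 genes were called, 11 with normexp and loess, 16 with the spread of these 3 arrays alone and 8 with the other arrays' mean subtracted. There *ABCC3*, against the *miR-150-3p* arrays alone, turned to −0.135. Leaving out an array gave 1 to 6. With siDONSON 3 were called, 0 with its own spread and 0 to 3 with an array left out. For *miR-150-3p* 1 was called, 6 with normexp and loess, 3 with median centring, 4 with both channels above background, 0 without a filter, 2 with the brightest probe, 0 with its own spread, 3 with the other arrays' mean subtracted and 0 to 10 with an array left out, 10 of them without SK-MES-1 and 0 without EBC-1. The difference of edited A549 and siDONSON gave 3, and 0 to 4 with an array left out, 0 without GE2. The 13 genes past 2-fold in A549 became 8 at a log2 difference of 2 and stayed 13 with any array left out. In the Cy5 channel 14 passed without *HMOX1*, which was 0.68 over the nearest line on the log2 scale. The single gene in EBC-1 became 2 with scaling to the 75th percentile, 0 with normexp, 2 in Cy5, 0 at a log2 difference of 2, and 1 with any array left out.

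For edited A549 against siDONSON SBC-3 levels, same-numbered arrays did not deviate together (correlations of −0.032, 0.015 and −0.008). This does not show whether same-numbered samples were handled together. The replicate block left 30 genes called, as without it, and so did setting levels below the detection floor to it, an alternative chosen after seeing the data. In the Cy3 channel 31 passed, 30 higher and *GCLM* lower. No paired analysis was possible for the ratios, which are tested against 0. Over all genes, 470 to 5873 were called in edited A549 (2229 as reported), 26 to 2897 with siDONSON (1044), 0 to 2973 with *miR-150-3p* (765), where the spread of its own arrays gave 0, and 157 to 1610 for the difference (996). Single-gene values counted as unchanged in 2064 cases. Tested values counted so with the same sign and side of the threshold, or if uncalled with a sign change smaller than the SE. Control levels counted so within the SD of the A549 arrays. Other values missed the threshold in 44 cases, newly passed in 61, moved in 84 and reversed in 1. The cause was not tested. Dim control signals limit 6 genes in EBC-1, 2 in SK-MES-1 and 11 in SBC-3.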
